A study of Mus musculus with 12 samples.

Results

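The 37 lysosome and cathepsin genes described here are a hand-picked set of genes whose products work in or on the lysosome. The members were found on the arrays by gene name among the probes that are not controls, and probes that the scanner software flagged as well above background on 4 or more of the 12 arrays were used. All 37 members passed, out of 19820 genes that passed in all. They had 62 probes, of which 60 passed, and each of those 60 was well above background on all 12 arrays and saturated on none; the 2 probes that did not pass were 1 each of Naglu and Npc1, whose other probe passed. The filter could therefore not have favoured members that were high in a single group. Where a gene had several probes, its values are those of the brightest unless another is named. RNA of whole lung from 12 C57Bl/6 mice was measured on single-colour arrays, 1 mouse per array and 4 mice per group. The groups were wild-type (WT) mice in room air, WT mice exposed to cigarette smoke on 5 days a week for 4 months, and Rora mutant mice exposed to the same smoke. The labels give all mice as male with an age of 12 weeks, which is shorter than the smoke protocol and so cannot be the age at its end. The labels do not state the Rora allele or the cells in which it acts, and mutant mice in room air were not analysed here, so that a difference between genotypes cannot be told apart from a different response to smoke.

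Lysosomes are the acidic compartment in which cells break down proteins, sugar chains and lipids taken up from outside or delivered by autophagy. A proton pump, the vacuolar ATPase, acidifies them, and cathepsins and other hydrolases do the digestion. Membrane proteins such as LAMP1 shield the membrane, and other membrane proteins export the products. In the lung, alveolar macrophages are rich in lysosomes because they clear surfactant, debris and inhaled particles, and secreted cathepsins can cut elastin and collagen of the lung matrix. Many lysosomal genes carry an E-box bound by TFEB and related factors, which raise the genes of the compartment together; the nuclear receptor RORA, encoded by Rora, acts on genes through ROR elements.

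Before the members, 3 facts about the arrays bear on every comparison. The mean level of Rora was 1.10 in room air and 1.18 in smoke for WT mice, and -1.01 for the mutants, on the scale used for every level below, log2 units relative to the array's 75th percentile of signal (mutant minus WT smoke -2.20 ± 0.06, SE, limma adjusted p = 1.16e-09). Although every mouse is labelled male, Xist, transcribed from the inactive X chromosome of females, had a mean level of 4.04 on the room-air arrays against -5.39 for WT smoke and -4.61 for the mutants, and the Y-linked gene Ddx3y was well above background on none of the 4 room-air arrays and on all 8 smoke arrays. Sex and smoke can thus not be told apart in any comparison with room air, whereas the 2 smoke groups shared the same pattern. Each of the 3 slides was scanned separately and held arrays of all 3 groups, and 70.1% to 74.8% of the spots of an array were well above background.

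Promoter sequence was available from RefSeq (build GRCm38.p6) for 30 of the 37 members, as the 250 bases before each annotated start. The E-box CACGTG, the core of the site that TFEB and its relatives bind, lay in this stretch in 11 of the 30 members (36.7%), against 6.86% of all 27025 genes with a promoter. The longer octamer TCACGTGA lay in 5 of the 30 (16.7%), namely Atp6v1a, Ctsa, Ctsd, Gla and Mcoln1, against 0.907% of all genes. The windows around the E-box nearest to the start show what these members share, with the E-box in capitals and each sequence in the direction of the gene.
Atp6v1a, chr16:44139373-44139402, minus strand: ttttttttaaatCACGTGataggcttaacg
Ctsa, chr2:164833749-164833772, plus strand: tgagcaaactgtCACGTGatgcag
Ctsd, chr7:142387908-142387937, minus strand: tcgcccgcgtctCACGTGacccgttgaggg
Ctsf, chr19:4855074-4855103, plus strand: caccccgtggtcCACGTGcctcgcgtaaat
Ctsl, chr13:64370739-64370768, minus strand: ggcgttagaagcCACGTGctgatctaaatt
Gla, chrX:134601182-134601211, minus strand: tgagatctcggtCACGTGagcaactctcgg
Glb1, chr9:114401018-114401047, plus strand: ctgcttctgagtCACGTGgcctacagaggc
Lamp1, chr8:13159134-13159160, plus strand: acgtgaccacatCACGTGcggaacgga
Lgmn, chr12:102439124-102439153, minus strand: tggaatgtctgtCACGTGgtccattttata
Mcoln1, chr8:3500462-3500491, plus strand: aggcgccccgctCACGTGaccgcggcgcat
Naglu, chr11:101070009-101070038, plus strand: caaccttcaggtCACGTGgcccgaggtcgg

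In Lamp1 the E-box came 4 times, beginning at positions -61, -45, -28 and -15 from the start. In Glb1 it overlapped a match to the AP-1 motif TGACTCA by part of its letters. The letters TAGGTCA, the core of a ROR element, were in none of the 30 members within these 250 bases, against 2.55% of all genes. All motifs were read on both strands, and a match of letters is not evidence of a bound site.

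The members with the largest changes between WT smoke and mutants were not among these 11. Of the 11 members with an E-box, 0 passed by the brightest probe as higher in the mutants than in WT smoke, although the other probe of Ctsd did. Their range over brightest probes was -0.15 to 0.22, median 0.03. At an unadjusted p under 0.05 were Ctsd and Gla, with changes above 0, and Ctsf, with the change of -0.15. Of the 19 without an E-box 5 passed (range -0.07 to 0.73, median 0.16). Over all genes 2.48% were called higher, so 0 of 11 is near the background. This division was made with the results known and was not tested. Between room air and mutants 2 of the 11, Ctsd and Gla, and 9 of the 19 were higher, against 6.66% of all genes. Atp6v0d2 had no entry in the promoter table. The upstream sequences of these 5 genes, Ctss, Ctsc, Cd68, Grn and Npc2, and of Ctsk are given because the comparisons turn on them. Capitals mark matches to TGACTCA in Cd68 and to the PU.1 motif GAGGAAGT in Ctsc, read on the reverse strand where the letters are its complement.
Ctss, chr3:95526536-95526785, plus strand: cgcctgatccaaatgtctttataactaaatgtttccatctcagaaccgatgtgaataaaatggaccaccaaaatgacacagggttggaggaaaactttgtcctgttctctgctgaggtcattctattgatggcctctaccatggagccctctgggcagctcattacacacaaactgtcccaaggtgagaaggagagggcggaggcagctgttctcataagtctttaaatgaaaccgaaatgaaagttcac
Ctsc, chr7:88277835-88278084, plus strand: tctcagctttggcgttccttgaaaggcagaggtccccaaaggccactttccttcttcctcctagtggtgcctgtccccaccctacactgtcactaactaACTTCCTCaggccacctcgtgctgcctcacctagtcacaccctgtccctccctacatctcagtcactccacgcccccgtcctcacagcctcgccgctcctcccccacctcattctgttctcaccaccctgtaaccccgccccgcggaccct
Ctsk, chr3:95498960-95499209, plus strand: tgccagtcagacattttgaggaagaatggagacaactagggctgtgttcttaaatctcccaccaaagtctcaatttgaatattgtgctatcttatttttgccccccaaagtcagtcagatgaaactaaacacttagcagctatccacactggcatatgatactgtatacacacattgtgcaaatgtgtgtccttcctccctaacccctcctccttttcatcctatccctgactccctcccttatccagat
Cd68, chr11:69666171-69666420, minus strand: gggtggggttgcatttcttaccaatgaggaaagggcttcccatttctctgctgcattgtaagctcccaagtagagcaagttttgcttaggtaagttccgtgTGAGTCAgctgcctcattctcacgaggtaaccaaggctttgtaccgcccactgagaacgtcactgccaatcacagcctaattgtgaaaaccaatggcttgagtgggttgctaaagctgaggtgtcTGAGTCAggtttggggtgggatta
Grn, chr11:102430257-102430506, plus strand: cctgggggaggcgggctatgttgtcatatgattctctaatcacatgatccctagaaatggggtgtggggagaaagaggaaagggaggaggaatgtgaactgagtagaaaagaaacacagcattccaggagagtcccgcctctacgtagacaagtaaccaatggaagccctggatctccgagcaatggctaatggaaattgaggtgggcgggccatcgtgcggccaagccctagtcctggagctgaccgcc
Npc2, chr12:84773113-84773362, minus strand: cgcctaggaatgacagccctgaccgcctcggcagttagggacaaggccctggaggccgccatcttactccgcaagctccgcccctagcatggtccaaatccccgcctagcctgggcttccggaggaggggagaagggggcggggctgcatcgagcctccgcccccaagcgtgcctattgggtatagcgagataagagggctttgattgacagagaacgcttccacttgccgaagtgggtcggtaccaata

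The number of CpG pairs varied among these 6 stretches, with 0 in Ctsk, 4 each in Ctss and Cd68, 8 in Grn, 9 in Ctsc and 16 in Npc2, against a median of 8 over the 30 members and 6 over all genes. TGACTCA was found in 4 of the 30 members (13.3%; Cd68, Glb1, Neu1 and Psap) against 5.16% of all genes, and GAGGAAGT in 2 (6.67%; Ctsc and Gla) against 2.79%.

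In WT mice, few members differed between smoke and room air. Ctsk rose and Ctsc fell, and the other 35 members did not pass the test. Most of the small differences lay on the side of higher values: 30 of 37 members had a change above 0 (81.1%), where 46.8% of all genes did, and the median change was 0.06 log2 units against -0.01 over all genes. A member was called at a limma adjusted p under 0.05 over all 19820 genes, which 2.31% of all genes reached as higher and 2.55% as lower, so 1 of 37 in each direction is near the background. At an unadjusted p under 0.05 were 12 members in either direction, against 18.3% of all genes. In 8 members the 4 smoke values lay above the 4 room-air values without overlap (5.98% of all genes) and in 3 below them (6.91%). Over all genes 457 were called higher and 506 lower, a split that turned to 592 and 351 when each array was scaled to its median. Within the slides, the median change of the members was 0.09, 0.07 and 0.08.

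In smoke, the Rora mutants had more RNA of several members than WT mice. Ctss, Ctsc, Npc2, Grn, Cd68 and Atp6v0d2 rose, by 0.27 to 0.73 log2 units, and no member fell. The 6 calls are 16.2% of the members, where 2.48% of all genes were called higher and 3.56% lower (6.04% in either direction). The change was above 0 in 31 of 37 members, against 50.6% of all genes, and its median was 0.12 against 0.00. Ctsf was the only member with a change below 0 at an unadjusted p under 0.05 (-0.15 ± 0.07, limma adjusted p = 0.214). The mutant values lay above the WT smoke values without overlap in 12 members, against 6.55% of all genes, and below them in 0, against 6.85%. At an unadjusted p under 0.05 were 17 members in either direction, against 21.2% of all genes. With slide as a block 4 of the 6 calls were left, without Npc2 and Cd68, and without mutant replicate 4 there were 2. Over all genes 491 were called higher and 706 lower, or 686 and 529 with scaling to the array median. The member median within the slides was 0.09, 0.16 and 0.10.

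Between the smoke-exposed mutants and WT mice in room air, which differ in genotype, smoke and the sex-linked transcripts, 14 of the 37 members were higher (37.8%, against 6.66% of all genes) and none was lower (10.0% of all genes). At an unadjusted p under 0.05 were 20 members in either direction, against 30.8% of all genes. This comparison shares its arrays with the other 2 and is no independent measurement. The change was above 0 in 33 members, with 48.5% of all genes, and the median was 0.15 against -0.01. The groups lay apart without overlap in 17 members with the mutants above (9.29% of all genes) and in 1, Ctsf, with the mutants below (11.7%). Of the 34 members off the X chromosome 12 were higher, so Gla and Lamp2, both X-linked, made up the other 2 calls. Over all genes 1321 were higher and 1990 lower, or 2961 and 1403 with scaling to the array median. The member median within the slides was 0.23, 0.17 and 0.15.

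**Figure D1:**
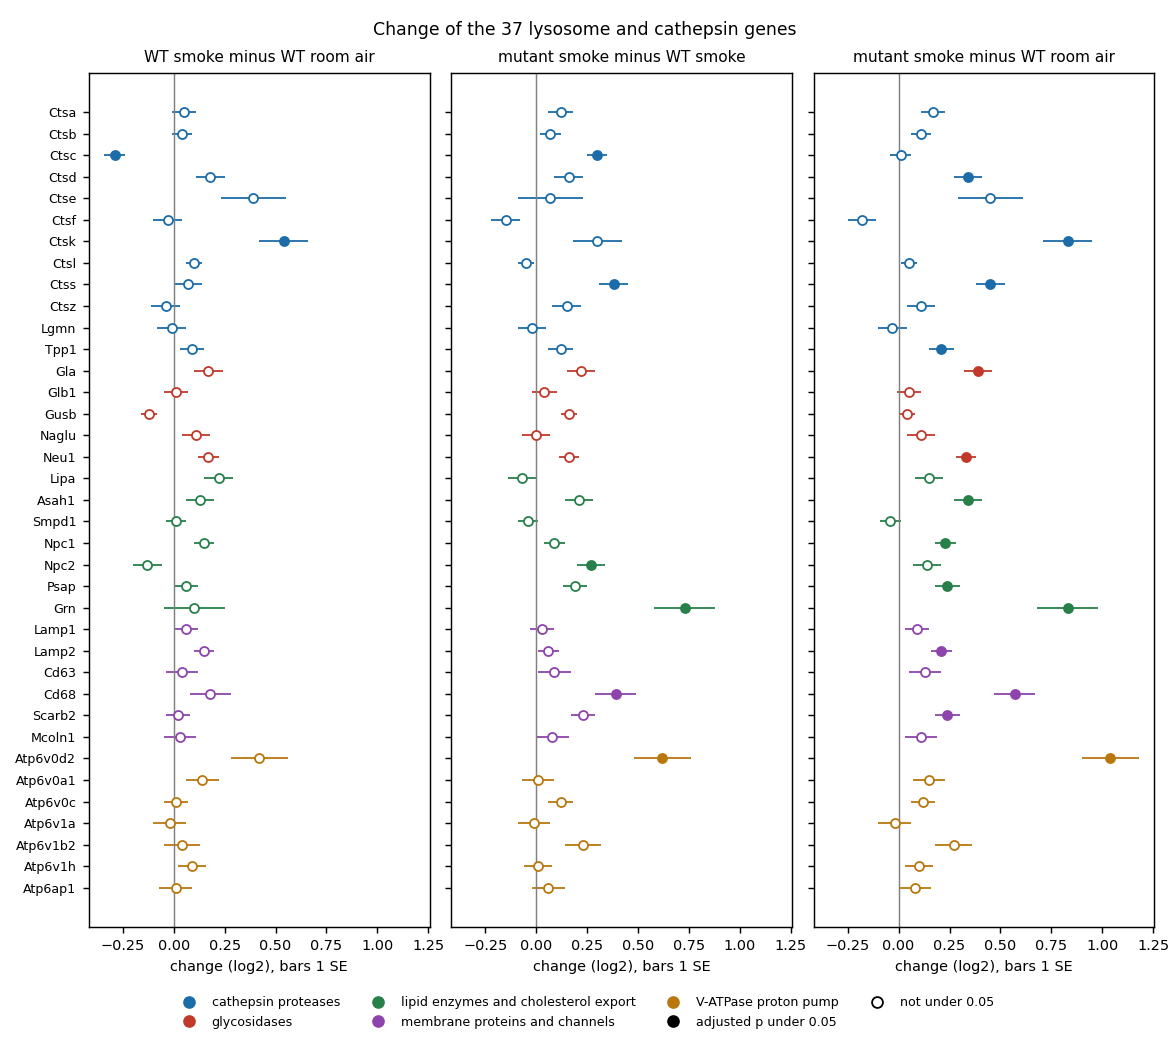
Change of each of the 37 lysosome and cathepsin genes in the 3 comparisons, in log2 units (horizontal axis) with bars of 1 SE, coloured by role. Filled points had a limma adjusted p under 0.05 over all genes; 2 members are filled on the left, 6 in the middle and 14 on the right, and most open points lie to the right of 0.

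Among the 12 cathepsins and related proteases, the cysteine protease cathepsin S, which trims the invariant chain of MHC class II and cuts elastin, separated the mutants most cleanly. The level of Ctss was 4.64, 4.78, 4.91 and 4.61 on the room-air arrays, 4.89, 4.86, 4.72 and 4.73 in WT smoke, and 5.18, 5.20, 5.18 and 5.16 in the mutants. The 4 mutant values lay close together and above all 8 WT values, while the WT groups overlapped. Ctss rose by 0.38 ± 0.07 between WT smoke and mutants (SE, 1.30-fold, adjusted p = 0.0117) and was higher in each slide (0.29, 0.40 and 0.45). It was 0.45 ± 0.07 above room air in the mutants (adjusted p = 0.0017), and 0.07 ± 0.07 above it in WT smoke (adjusted p = 0.687).

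Cathepsin C, the dipeptidyl peptidase that activates serine proteases of neutrophils and other immune cells, was the member that fell in WT smoke. Ctsc stood at 3.50, 3.43, 3.38 and 3.46 in room air, at 3.14, 3.11, 3.20 and 3.16 in WT smoke, and at 3.52, 3.51, 3.39 and 3.40 in the mutants. WT smoke lay below both other groups without overlap, and room air and mutants overlapped. The change was -0.29 ± 0.05 for smoke against room air in WT (adjusted p = 0.00738) and 0.30 ± 0.05 for mutants against WT smoke (adjusted p = 0.00678); both values rest on the same 4 WT smoke arrays. The mutants differed from room air by 0.01 (95% interval -0.10 to 0.12). Each of the first 2 changes had the same sign in all 3 slides.

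Cathepsin K, the collagen- and elastin-cutting protease best known from osteoclasts, had the largest change of any member in WT smoke. Ctsk was -0.47, -0.49, -0.22 and -0.85 in room air, 0.26, 0.01, 0.01 and -0.17 in WT smoke, and 0.29, 0.40, 0.22 and 0.38 in the mutants. Both smoke groups lay above room air without overlap, and they overlapped with each other at WT smoke replicate 1. The rise in WT smoke was 0.54 ± 0.12 (1.45-fold, adjusted p = 0.0313) and spread over the slides as 0.92, 0.41 and 0.23. With slide as a block the adjusted p was 0.0662, and it ran from 0.011 to 0.434 over the 23 alternative settings. The mutants were 0.83 ± 0.12 above room air (1.78-fold, adjusted p = 0.00114), a call kept in all 23 settings, and 0.30 ± 0.12 above WT smoke (adjusted p = 0.19). The probes of Ctsk and Ctss lie 49271 bases apart on chromosome 3 of build mm8, at chr3:95592129-95592373 and chr3:95641644-95641703.

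Cathepsin D, the main aspartic protease of lysosomes, and tripeptidyl peptidase 1, which removes tripeptides from protein ends, were called, by their brightest probes, for mutants against room air only. Ctsd stood at 4.84, 4.83, 4.85 and 4.86 in room air, 5.16, 4.94, 5.06 and 4.94 in WT smoke, and 5.20, 5.04, 5.26 and 5.26 in the mutants. All 8 smoke values lay above the room-air values, and the 2 smoke groups overlapped. The change from room air was 0.34 ± 0.07 in the mutants (adjusted p = 0.00501) and 0.18 ± 0.07 in WT smoke (adjusted p = 0.158). Tpp1 rose by 0.21 ± 0.06 between room air and mutants (adjusted p = 0.0254), a call lost in 7 of the 23 settings, slide as a block among them (adjusted p = 0.0511).

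Of the remaining proteases none passed in any comparison by its brightest probe. The broadly expressed cathepsin B ran from 4.40 to 4.64 over the 12 arrays, cathepsin L from 5.36 to 5.51, and legumain, which processes other cathepsins, from 3.71 to 3.99. Ctsa, whose product protects neuraminidase and beta-galactosidase, changed by 0.17 ± 0.06 between room air and mutants by its brightest probe (adjusted p = 0.0856), while its 2 other probes passed over all probes, with 0.21 and 0.38 (adjusted p = 0.026 and 0.00953). Ctsf, the cysteine protease cathepsin F, was the only member with mutant values wholly below room air (0.49 to 0.62 against 0.65 to 0.85, change -0.18 ± 0.07, adjusted p = 0.0796). Ctse, an aspartic protease of the endosome, had the widest SE of the proteases: its change in WT smoke was 0.39 ± 0.16 (adjusted p = 0.213) with the 4 smoke values above the 4 of room air. Ctsz had a change of 0.15 ± 0.07 between WT smoke and mutants (adjusted p = 0.214).

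**Figure D2:**
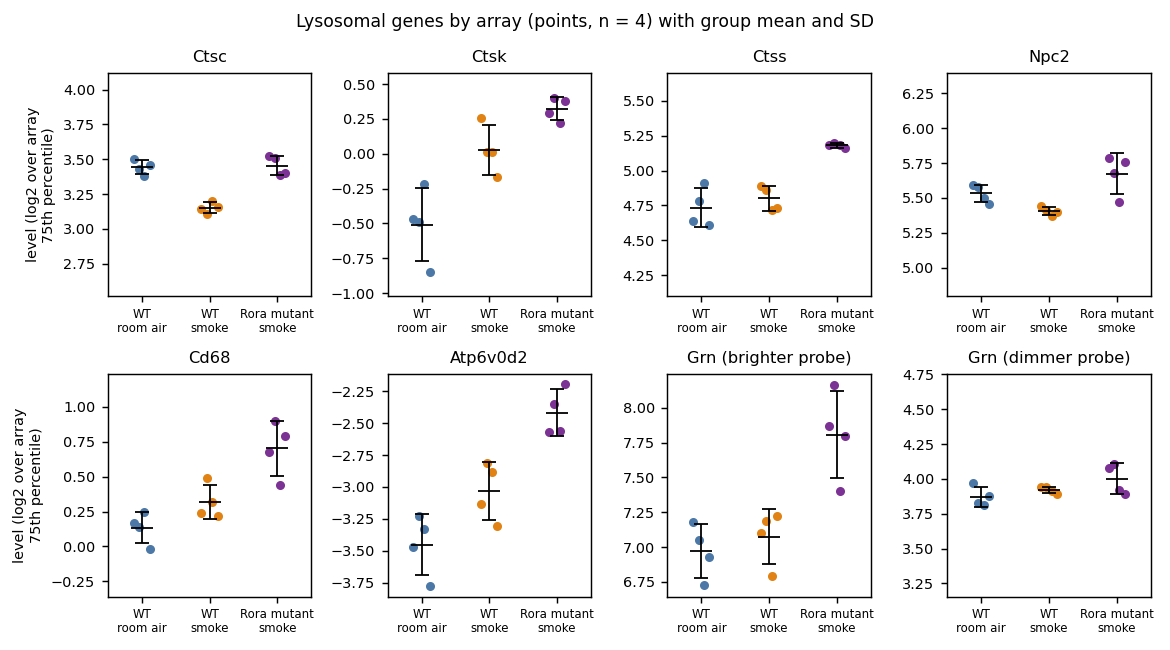
Level of 7 members on each array (points, n = 4 per group) with the group mean and SD, in log2 units relative to the 75th percentile of the array; each panel has its own axis range, and Grn is shown by both of its probes. Ctss and Atp6v0d2 of the mutants lie above all other arrays, Ctsc is lowest in WT smoke, and the dimmer Grn probe shows little of the change seen by the brighter probe.

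The 5 glycosidases, which strip sugars from glycolipids and glycoproteins, moved by less. None passed between WT smoke and room air or between mutants and WT smoke, although the change was above 0 in 4 and 5 of the 5 and 3 of the 5 had an unadjusted p under 0.05 in each comparison (18.3% and 21.2% of all genes). Neu1, the sialidase that removes terminal sialic acid, stood at 3.09, 2.94, 3.05 and 3.00 in room air, 3.14, 3.19, 3.21 and 3.21 in WT smoke, and 3.35, 3.26, 3.38 and 3.4 in the mutants. The 3 groups followed each other without overlap. The mutants were 0.33 ± 0.05 above room air (adjusted p = 0.00166), and the steps were 0.17 ± 0.05 to WT smoke (adjusted p = 0.0909) and 0.16 ± 0.05 from there to the mutants (adjusted p = 0.101). Its other probe had group means of 0.69, 0.85 and 0.98. Gla, the X-linked alpha-galactosidase A, was 0.39 ± 0.07 above room air in the mutants (adjusted p = 0.0031), but its other probe changed by -0.10 between WT smoke and mutants where the brighter probe changed by 0.22, and it did not pass against room air. Gusb, the beta-glucuronidase, came near the threshold between WT smoke and mutants (0.16 ± 0.04, adjusted p = 0.0543), with 1.34, 1.37, 1.35 and 1.27 in WT smoke and 1.47, 1.5, 1.49 and 1.5 in the mutants. Glb1 and Naglu changed by 0.11 or less in all 3 comparisons.

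The group of lipid breakdown and cholesterol export held 7 genes, with the progranulin gene Grn, which is neither a lipid enzyme nor an exporter, counted among them. Between WT smoke and mutants 2 of the 7 rose, Grn and Npc2 (28.6%, against 2.48% of all genes). Between room air and mutants 4 rose, again with Grn (57.1%, against 6.66% of all genes). Grn encodes progranulin, which is cut into granulins in the lysosome, and its brighter probe had the largest change of all members in the smoke comparison. That probe, at chr11:102249367-102249426 of mm8, stood at 7.18, 7.05, 6.73 and 6.93 in room air, at 7.10, 7.19, 6.79 and 7.22 in WT smoke, and at 7.87, 8.16, 7.40 and 7.80 in the mutants. The mutant values lay above all 8 others, with replicate 3 nearest to them, and the WT groups overlapped. The rise was 0.73 ± 0.15 over WT smoke (1.66-fold, adjusted p = 0.0201; 0.77, 0.96 and 0.81 within the slides) and 0.83 ± 0.15 over room air (adjusted p = 0.00427). The other Grn probe, at chr11:102252468-102252527, had group means of 3.87, 3.92 and 4.00 and a change of 0.08 between WT smoke and mutants. The rise of Grn is therefore that of a single probe, and without mutant replicate 4 or WT smoke replicate 3 the adjusted p of that probe was over 0.05.

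NPC2 carries cholesterol to NPC1, which exports it through the lysosomal membrane. Npc2 stood at 5.59, 5.58, 5.50 and 5.46 in room air, 5.44, 5.41, 5.37 and 5.40 in WT smoke, and 5.79, 5.68, 5.47 and 5.76 in the mutants. WT smoke was lowest without overlap with either group, and mutant replicate 3 lay within the room-air range. Npc2 rose by 0.27 ± 0.07 between WT smoke and mutants (adjusted p = 0.0444, and 0.0078 to 0.623 over the 23 settings, 17 of which lost the call). Npc1 followed a different order, with group means of -0.01, 0.14 and 0.23, and passed only for mutants against room air (0.23 ± 0.05, adjusted p = 0.0105). Asah1, the acid ceramidase, and Psap, the precursor of the saposins that present lipids to hydrolases, were 0.34 ± 0.07 and 0.24 ± 0.06 above room air in the mutants (adjusted p = 0.00974 and 0.0131). In both, the mutant values also lay above WT smoke without overlap, with adjusted p = 0.12 and 0.0746. The other probe of Psap did not pass against room air (0.22, adjusted p = 0.138). Lipa, the acid lipase of cholesteryl esters, had its highest mean in WT smoke (0.60, 0.82 and 0.75 in the 3 groups) and passed nowhere, and Smpd1, the acid sphingomyelinase, stayed between 4.10 and 4.26 on all arrays.

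Of the 6 membrane proteins, CD68, a heavily glycosylated late endosomal protein used as a macrophage marker, changed most. Cd68 stood at 0.17, 0.14, 0.25 and -0.02 in room air, 0.24, 0.49, 0.32 and 0.22 in WT smoke, and 0.68, 0.90, 0.44 and 0.79 in the mutants. Mutant replicate 3 overlapped with WT smoke replicate 2, and all mutant values lay above room air. Cd68 rose by 0.39 ± 0.10 over WT smoke (1.31-fold, adjusted p = 0.0452, and 0.0158 to 0.598 over the 23 settings, 15 of which lost the call) and by 0.57 ± 0.10 over room air (adjusted p = 0.0032). Scarb2, the receptor that carries glucocerebrosidase to lysosomes, was 0.24 ± 0.06 above room air in the mutants (adjusted p = 0.0203) and 0.23 ± 0.06 above WT smoke (adjusted p = 0.0534). Both Scarb2 probes gave mutant values above all WT values. Their positions overlap, at chr5:93523745-93525078 and chr5:93523785-93525118 of mm8, so they are not independent readings. Its other probe passed over all probes between WT smoke and mutants (0.21, adjusted p = 0.0485). Lamp2, X-linked and needed for chaperone-mediated autophagy, was 0.21 ± 0.05 above room air in the mutants by its brightest probe (adjusted p = 0.0144). Its 2 other probes did not pass there (0.21 and 0.01, adjusted p = 0.106 and 0.95), and the call was lost with the mean of a gene's probes. Lamp1, a main protein of the lysosomal coat, the tetraspanin gene Cd63 and Mcoln1, the calcium channel of the lysosome, changed by 0.13 or less in all 3 comparisons by their brightest probes and did not pass. The other probe of Mcoln1 passed against room air (0.22, adjusted p = 0.0327).

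Of the 7 proton pump genes Atp6v0d2 alone passed by the brightest probe, and against room air it had the largest change of all members. This call is 14.3% of the 7 genes in each comparison of the mutants, against 2.48% and 6.66% of all genes. Atp6v0d2 encodes a form of the d subunit of the membrane sector with restricted expression, known from osteoclasts and macrophages. It stood at -3.47, -3.23, -3.33 and -3.78 in room air, -3.13, -2.81, -2.88 and -3.31 in WT smoke, and -2.57, -2.35, -2.56 and -2.19 in the mutants. The mutants lay above both WT groups without overlap, and the WT groups overlapped. The rise over WT smoke was 0.62 ± 0.14 (1.54-fold, limma adjusted p = 0.0271), with 0.56, 0.71 and 0.51 within the slides. Over the 23 settings its adjusted p ran from 0.0116 to 0.623, and 6 of them lost the call. The mutants stood 1.04 ± 0.14 above room air (2.05-fold, adjusted p = 0.000707), and WT smoke stood 0.42 ± 0.14 above it (adjusted p = 0.127).

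The widely expressed subunits Atp6v0c, which forms the proton-carrying ring, Atp6v1a, which holds the ATP-hydrolysing site, Atp6v1h and the accessory gene Atp6ap1 changed by 0.12 or less by their brightest probes, though a dim probe of Atp6v1h changed by -0.32 between WT smoke and mutants (adjusted p = 0.0771) and passed as lower against room air (-0.50, adjusted p = 0.0058). Atp6v1b2 had a change of 0.23 ± 0.09 between WT smoke and mutants (adjusted p = 0.167) with the mutant values, 0.34 to 0.56, at or above the highest WT smoke value of 0.34. The probes of Atp6v0a1 gave different answers: group means of 0.41, 0.54 and 0.56 for the brightest, -0.45, -0.18 and -0.47 for the second, and -3.46, -3.11 and -2.98 for the third. The second passed as lower in the mutants than in WT smoke (-0.30, adjusted p = 0.0432).

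Several probes were available for 18 members, and they allow a check of the choice of the brightest. All probes of a gene had the same sign of change in 15 of the 18 for smoke against room air, in 11 for mutants against WT smoke, and in 14 for mutants against room air. The median gap between the probes of a gene was 0.06, 0.06 and 0.10 log2 units. The widest gap was 0.26 (Atp6v1h) in the first comparison and 0.65 and 0.71 (Grn) in the others. The dimmer Ctsd probe went further than the brighter in the mutants, with a change of 0.29 over WT smoke that passed over all probes (adjusted p = 0.0268) where the brighter had 0.16 ± 0.07.

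**Figure D3:**
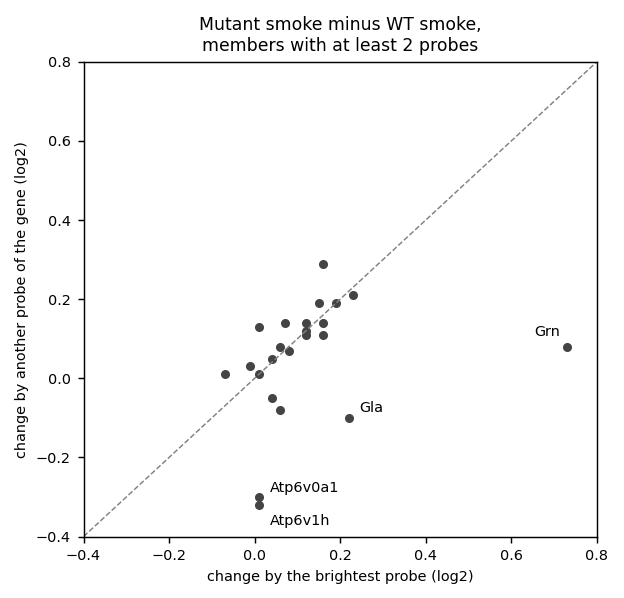
Change between WT smoke and mutants by the brightest probe (horizontal axis) and by another probe of the same gene (vertical axis), in log2 units, for the members with at least 2 probes; the dashed line marks equal change. Most points lie near the line, and Grn, with 0.73 against 0.08, lies farthest from it.

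Several genes of alveolar macrophages were higher in the same comparisons as the members. Whole-lung RNA does not tell more cells of a type from more RNA per cell. Of 16 listed alveolar macrophage markers 15 were measured, among them the members Ctsk, Cd68 and Atp6v0d2. Of the 15, 3 rose from room air to WT smoke, the member Ctsk among them (2.31% of all genes). In the mutants 7 were higher than in WT smoke, Cd68 and Atp6v0d2 among them (2.48% of all genes). Between room air and mutants 13 were higher, with all 3 members (6.66% of all genes), and none was lower in any comparison. With slide as a block the counts of 3, 7 and 13 were 1, 4 and 12. In WT smoke 11 of the 15 had a change above 0 (46.8% of all genes). The surface lectin gene Siglecf stood at -1.07, -0.90, -1.08 and -1.10 in room air, at -1.14, -1.22, -1.11 and -1.38 in WT smoke and at -0.38, -0.37, -0.57 and -0.24 in the mutants. WT smoke lay below room air without overlap (change -0.17 ± 0.08, adjusted p = 0.301), and the mutants above WT smoke (change 0.82 ± 0.08, adjusted p = 0.000312). The summed level of the 12 markers that are no members, each well above background on all 12 arrays, was 6.75 to 6.90 in room air, 6.80 to 6.97 in WT smoke and 7.22 to 7.77 in the mutants. Linear signals were summed, so Chil3, the brightest of the 12, weighs most (group means 6.20, 6.16 and 6.90). The dimmer Marco rose 1.81-fold in WT smoke, which this sum hardly shows. Without the 3 shared genes, 4 of 34 members were called higher between WT smoke and mutants (11.8%, against 2.48% of all genes). Their median was 0.09, against 0 over all genes. Between room air and mutants 11 of 34 were called higher (32.4%, against 6.66%), with a median of 0.13 against -0.01. The part of these cells in the members' changes was not tested.

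Per array, the median of the members relative to the room-air means was -0.01 to 0.01 in room air, 0.08 to 0.10 in WT smoke and 0.14 to 0.23 in the mutants, with no overlap between the groups; the room-air arrays are centred on themselves by construction. The same measure for the 12 macrophage markers was -0.07 to 0.09, -0.03 to 0.18 and 0.32 to 0.69. Mutant replicate 3 was lowest of the mutants in both. Of 13 markers of interstitial macrophages and monocytes none passed between WT smoke and mutants, and 8 had a change above 0 (median 0.03). At an unadjusted p under 0.05 were 5 of them, against 21.2% of all genes. Of these 5, Adgre1, Ms4a7 and Fcgr4 had changes above 0 (0.32, 0.30 and 0.36) and Cx3cr1 and Nr4a1 below it (-0.39 and -0.94). Among neutrophil markers 1 of 8 was lower in the mutants than in WT smoke (3.56% of all genes). All 5 erythroid markers had a change above 0 in that comparison (median 0.61), and none passed. At an unadjusted p under 0.05 were 3 of the 5, against 21.2% of all genes. The summed erythroid level was 9.17 to 9.83 in room air, 8.95 to 9.28 in WT smoke and 9.33 to 9.89 in the mutants. Of 6 markers of ciliated cells 1 was lower in the mutants than in WT smoke (3.56% of all genes). Against room air 4 of the 6 were lower in the mutants (10.0% of all genes). The summed ciliated level was 3.89 to 4.04 in room air, 3.60 to 4.02 in WT smoke and 3.47 to 3.59 in the mutants. Of 11 markers of alveolar type 2 cells 3 were lower in WT smoke than in room air (2.55% of all genes). None of the 11 passed between WT smoke and mutants, where 9 had a change above 0 (50.6% of all genes). There 4 of the 11 had an unadjusted p under 0.05 (21.2% of all genes). The part of these lists in the members' changes was not tested.

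**Figure D4:**
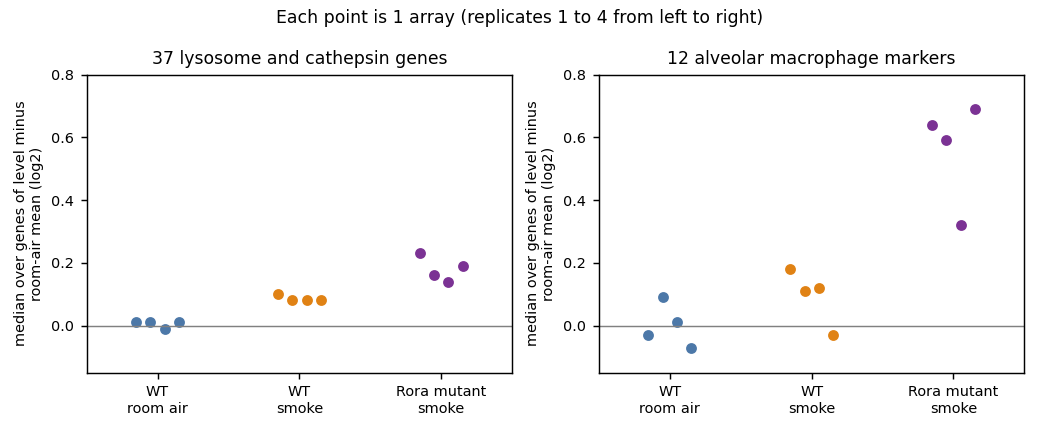
Median over genes of the level minus the room-air mean on each array, in log2 units, for the 37 members (left) and for 12 alveolar macrophage markers outside the set (right); each point is 1 array. The members reach 0.14 to 0.23 and the markers 0.32 to 0.69 in the mutants.

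Other genes of the lysosome were read from 6 lists that share no gene with the members. Of 36 other hydrolases 1 rose from room air to WT smoke, Dnase2a, which digests DNA of engulfed cells (0.39 ± 0.06, adjusted p = 0.00376). That is 2.78% of the list, near the 2.31% of all genes. In the mutants against WT smoke 2 of 36 were higher (5.56%, against 2.48% of all genes). These were the tartrate-resistant phosphatase gene Acp5 (0.24, adjusted p = 0.0286) and the mannosidase gene Man2b1 (0.19, adjusted p = 0.0376). Against room air 5 of 36 were higher (13.9%, against 6.66% of all genes), among them Dnase2a (0.42), the iduronate sulfatase gene Ids (0.27), Galns (0.22) and Hgsnat (0.21). Of 18 other proton pump subunits only Atp6v1g3 passed between WT smoke and mutants (0.63 ± 0.14, adjusted p = 0.024). Only Atp6v1e1 passed between room air and mutants (0.31 ± 0.09, adjusted p = 0.0317). Each of these calls is 5.56% of the list, against 2.48% and 6.66% of all genes. With slide as a block the calls of Man2b1, Hgsnat, Atp6v1g3 and Atp6v1e1 were lost (adjusted p = 0.069, 0.0563, 0.0598 and 0.0649).

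Of 30 other membrane proteins, Mcoln3, a cation channel of endosomes and lysosomes and a relative of the member Mcoln1, passed in all 3 comparisons. Its level was -1.84, -1.69, -1.83 and -1.97 in room air, -1.15, -1.12, -1.24 and -1.48 in WT smoke, and -0.88, -0.72, -0.61 and -0.80 in the mutants. The groups followed each other without overlap, with changes of 0.58 ± 0.09 (adjusted p = 0.00369), 0.50 ± 0.09 (adjusted p = 0.0107) and 1.08 ± 0.09 (adjusted p = 2.92e-05). In the same list the nucleoside transporter gene Slc29a3 fell by 0.47 between WT smoke and mutants (adjusted p = 0.0305) and Lamp3, a gene of alveolar type 2 cells, by 0.27 in WT smoke (adjusted p = 0.0199). In each of the first 2 comparisons 1 of 30 was higher (3.33%, against 2.31% and 2.48% of all genes). Between room air and mutants 3 of 30 were higher (10%, against 6.66% of all genes), Mcoln3, Slc17a5 (0.41) and Pip4p1 (0.23). There 2 were lower (10.0% of all genes), Slc29a3 among them (-0.63).

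Of 18 MiT/TFE factors and nutrient-sensing genes, Tfec and Mitf were higher in the mutants than in WT smoke (11.1%, against 2.48% of all genes). Fnip1, a partner of folliculin, rose from room air to WT smoke (0.29, adjusted p = 0.0478), which is 5.56% of the list against 2.31% of all genes. Between room air and mutants 4 of 18 were higher (22.2%, against 6.66% of all genes), Tfec (0.83), Fnip2 (0.44), Fnip1 (0.32) and Flcn (0.21). Tfec, the family member with expression mostly in macrophages, stood at -2.23, -2.32, -2.26 and -2.31 in WT smoke and at -1.61, -1.74, -1.45 and -1.33 in the mutants. The groups lay far apart (change 0.74 ± 0.09, adjusted p = 0.00117), and Tfec did not pass in WT smoke against room air. Mitf changed by 0.26 ± 0.07 (adjusted p = 0.0452). With slide as a block the calls of Mitf over WT smoke and of Fnip1 in WT smoke were lost (adjusted p = 0.0925 and 0.0694). The 4 calls between room air and mutants were kept. None of 24 sorting genes passed between WT smoke and mutants (2 at an unadjusted p under 0.05, against 21.2% of all genes). Against room air 2 were higher in the mutants, Sort1 (0.23) and Ap3m1 (0.19), which is 8.33% of the list, near the 6.66% of all genes. Both were lost with slide as a block (adjusted p = 0.0757 and 0.0634). Of 13 inhibitors of cathepsins and related proteins, Serpinb6b rose by 0.33 in the mutants over WT smoke (adjusted p = 0.0384, and 0.0661 with slide as a block). Kng1, the kininogen gene, was well above background on all 4 mutant arrays and on no WT array, at least 2.81-fold higher than in WT smoke, where the dimmest signal well above background stands for the WT level; it passed the filter on dim probes through the mutant arrays alone, so no test is given. Cystatin B, which blocks cathepsins in the cytosol, was 0.26 higher in the mutants than in room air (Cstb, adjusted p = 0.0287). Serpina3g of the same list had a larger rise there (0.99 ± 0.21, 1.98-fold, adjusted p = 0.00966).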

How the data were processed

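The authors read the scans with Agilent Feature Extraction (version 9.5.3.1), per the file headers, and the deposited processed signal of each spot is an intensity after background subtraction and detrending, not normalized between arrays. The deposited flags (well above background, saturated, outlier) are other values of 0 or 1. The deposited value table holds log2 intensities with 1 common median of 6.79 for all arrays (correlation with the processed signal 0.99953 to 0.99999). Per the labels, 100 ng of RNA was labelled.

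From 43379 non-control spots, 41174 probes were averaged and 30191 kept, for 19820 genes, each represented by its brightest kept probe. Levels are log2 of the processed signal relative to the 75th percentile of its array. The 3 comparisons came from 1 fit of group means over the 12 arrays (limma 3.58.1, lmFit and eBayes, R 4.3.3), two-sided, with Benjamini-Hochberg adjustment over all genes at 0.05; the fit was tested on simulated data. Gene names were updated through RefSeq: 24375 probes matched on the accession in the file, 121 on a further listed accession and 8620 on a symbol or synonym, while 8058 kept the file's name. Probe positions are on mm8. The number of arrays limits the precision. Standard deviations and n = 4 refer to mice.

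All 37 members are named, with Rora and, for each of 6 lists of other lysosomal genes, up to 4 genes per comparison with the smallest p among those called. Alternatives covered background correction, scaling, the authors' table, the probe filter, the mean of probes, slide and replicate blocks, 2 groups in the fit, eBayes settings and leaving out each array. The members and lists were chosen with earlier results of these data known. Plots used matplotlib 3.10.9. Promoters are RefSeq's on GRCm38.p6.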

Additional observations from a re-analysis of the deposited data

Results flagged for a closer look

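Single arrays stood apart from the other 3 of their group in 6 of the 111 combinations of member and group, and in 12 of 183 with the other lysosomal genes named; chance gives about 1 in 20, and none is explained here. Ctsb was highest in WT smoke replicate 4 (4.61, the next 4.49) and in mutant replicate 4 (4.64, the next 4.57). Glb1 was lowest in mutant replicate 4 (0.62, the next 0.78). Mutant replicate 3 had the highest Smpd1 of its group (4.24, the next 4.12) and the lowest Atp6v0c (0.50, the next 0.63). Scarb2 was lowest in room-air replicate 1 (2.12, the next 2.31), which is 1 of the 4 values behind its change from room air.

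Among the other lysosomal genes, Lamp3 was lowest in mutant replicate 2 (4.29). Room-air replicate 2 had the highest Atp6v1g3 (-4.55) and Acp5 (-0.56) and the lowest Galns (-1.46). Atp6v1e1 was lowest in room-air replicate 1 (1.23) and Sort1 in room-air replicate 4 (2.52).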

How the results depend on the processing

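Of 23 alternative settings, none turned the sign of a called change. Normexp background correction ended nearly all calls: members higher numbered 0 in smoke against room air, 0 in mutants against WT smoke and 1 in mutants against room air, members lower in WT smoke 0, and the median changes for the first 2 comparisons were 0.13 and 0.03. It also left few calls among all genes (12 higher and 16 lower for mutants against WT smoke) and put the median of all genes there at 0.10; the cause was not tested. Scaling to the array median gave 2 and 10 members higher in the first 2 comparisons, and medians of 0.10, 0.16 and 0.23 in the 3. This scaling also moved the medians of all genes to 0.03, 0.04 and 0.07, with 592, 686 and 2961 genes called higher. The single rise in WT smoke was lost (0) with 2 groups in the fit, without the filter on dim probes and with slide as a block, and the 6 in mutants against WT smoke became 3 without the filter, where more genes are tested, and 4 with only the 8 smoke arrays in the fit.

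Leaving out 1 array at a time gave 0 to 2 members higher and 1 lower in WT smoke (median 0.06 to 0.08), 2 to 6 higher and 0 lower in mutants against WT smoke (median 0.09 to 0.13), and 12 to 15 higher and 0 lower in mutants against room air (median 0.13 to 0.19). The 2 came without mutant replicate 4, and 3 came without mutant replicate 2 or WT smoke replicate 1, 3 or 4; WT smoke gave 0 higher without room-air replicate 1, 2 or 4 or WT smoke replicate 1, 2 or 3, and 2 without mutant replicate 3.

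The replicate numbers do not pair the mice: deviations of arrays with the same number correlated at -0.10 to 0.22. With the replicate block, 1, 5 and 13 members were higher in the 3 comparisons.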
